A study of Mus musculus with 21 samples.

Results

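Interferon-stimulated genes are genes that a cell transcribes more strongly after it senses interferon, the secreted signal of antiviral defence. The 9 genes described here were chosen by name: *Stat2*, *Irf9*, *Irf7*, *Ifit1*, *Ifit2*, *Ifit3*, *Bst2*, *Isg15* and *Usp18*. All 9 were found, each once, among the 21654 genes counted, and each averaged at least 50 reads per library. Polyadenylated RNA from punches of the mouse ventral hypothalamus (labelled circumventricular hypothalamus), which senses nutrients and hormones in the blood, had been sequenced as 100 bp reads in 21 libraries. The mice were C57/B6J males acquired at 12 to 14 weeks of age, with the strain labelled C57/BL6. RC NoDS mice (5 libraries) ate regular chow (RC) throughout, and HFD NoDS mice (5 libraries) ate a high-fat diet (HFD) throughout. RC → HFD mice (6 libraries) moved from chow to the high-fat diet for the last week, and HFD → RC mice (5 libraries) likewise moved from the high-fat diet to chow. Each library pooled tissue of 2 mice of its group, with 300 ng of RNA in all, so that single animals cannot be seen. Every group had been kept awake for 3 h with unfamiliar objects and was killed at ZT6, in the middle of the light phase, so that no group was undisturbed. Each library held 16380781 to 16390598 reads, because the authors had re-sampled all libraries to a common depth.

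In the textbook account, type I interferon binds a receptor of the IFNAR1 and IFNAR2 chains, whose kinases JAK1 and TYK2 phosphorylate STAT2. Phosphorylated STAT2 joins IRF9 in a complex that binds interferon-stimulated response elements near its target genes, and USP18 then holds the receptor back. Brain cells, microglia among them, keep a low level of such transcripts without infection.

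The tissue was first compared with its markers. *Pomc*, a marker of the arcuate nucleus, had 5012 to 11836 reads per library, and *Agrp*, another, had 426 to 1476. *Hcrt*, a marker of the lateral hypothalamus beside the punched region, had 28 to 1051. *Pmch*, another marker of the lateral hypothalamus, had 273 to 2234. It averaged 1079 reads, beside 837 for *Agrp*, so the libraries also held transcripts of that neighbouring region. The libraries differed in how many weakly expressed genes they held. The share of genes averaging 5 to 50 reads that were at 0 in a library was 3.22% ± 2.42 (SD, n = 5) in RC NoDS and 11.9% ± 8.82 (n = 6) in RC → HFD. HFD → RC libraries averaged 16.5% ± 10.3 and HFD NoDS libraries 16.3% ± 9.93. The highest shares were those of HFD NoDS 20 (32.9%) and HFD → RC 17 (31.9%), and RC NoDS libraries did not exceed 7.22%, so that the share moved with the groups.

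No interferon-stimulated gene among the 9 passed the threshold of an adjusted p under 0.15 in any comparison of diets. In HFD NoDS against RC NoDS, which sets long-term high-fat feeding against chow, edgeR called 0 of 9, beside 0.063% of the 15884 genes tested (10 genes). Between HFD → RC and RC → HFD, whose diets had been exchanged, it called 0 of 9, beside 0.0126% (2 genes, *Npy* and *Tk1*). Over all 4 groups it called 0 of 9, beside 0.126% (20 genes). It called 0 of 9 in RC → HFD against RC NoDS, beside 0.0315% (5 genes, *Npy*, *Trh*, *Agrp*, *Rbm3* and *Kif5a*), and in HFD → RC against RC NoDS 0 of 9, beside 0.157% (25 genes). It called 0 of 9 in HFD NoDS against RC → HFD, beside 0.0063% (1 gene, *C4b*), and in HFD NoDS against HFD → RC 0 of 9, beside 0.0252% (4 genes, *Npy*, *Cartpt*, *Smoc2* and *Stat3*). For the interaction, the effect of the current diet after earlier HFD minus that after earlier RC, it called 0 of 9, beside 0% (0 genes). These other genes were named after their values were seen.

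DESeq2 and limma-voom also called 0 of the 9 in each of the 8 comparisons. An unadjusted p under 0.05 from edgeR was reached by 1 of the 9, *Ifit1* in HFD → RC against RC NoDS, and by 0 of the 9 in the other 7 comparisons. Among all tested genes, between 5.02% and 8.16% had an unadjusted p under 0.05, depending on the comparison. The comparisons share libraries, those of RC NoDS entering 3 of the pairs, and are therefore not independent of each other.

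**Figure D1:**
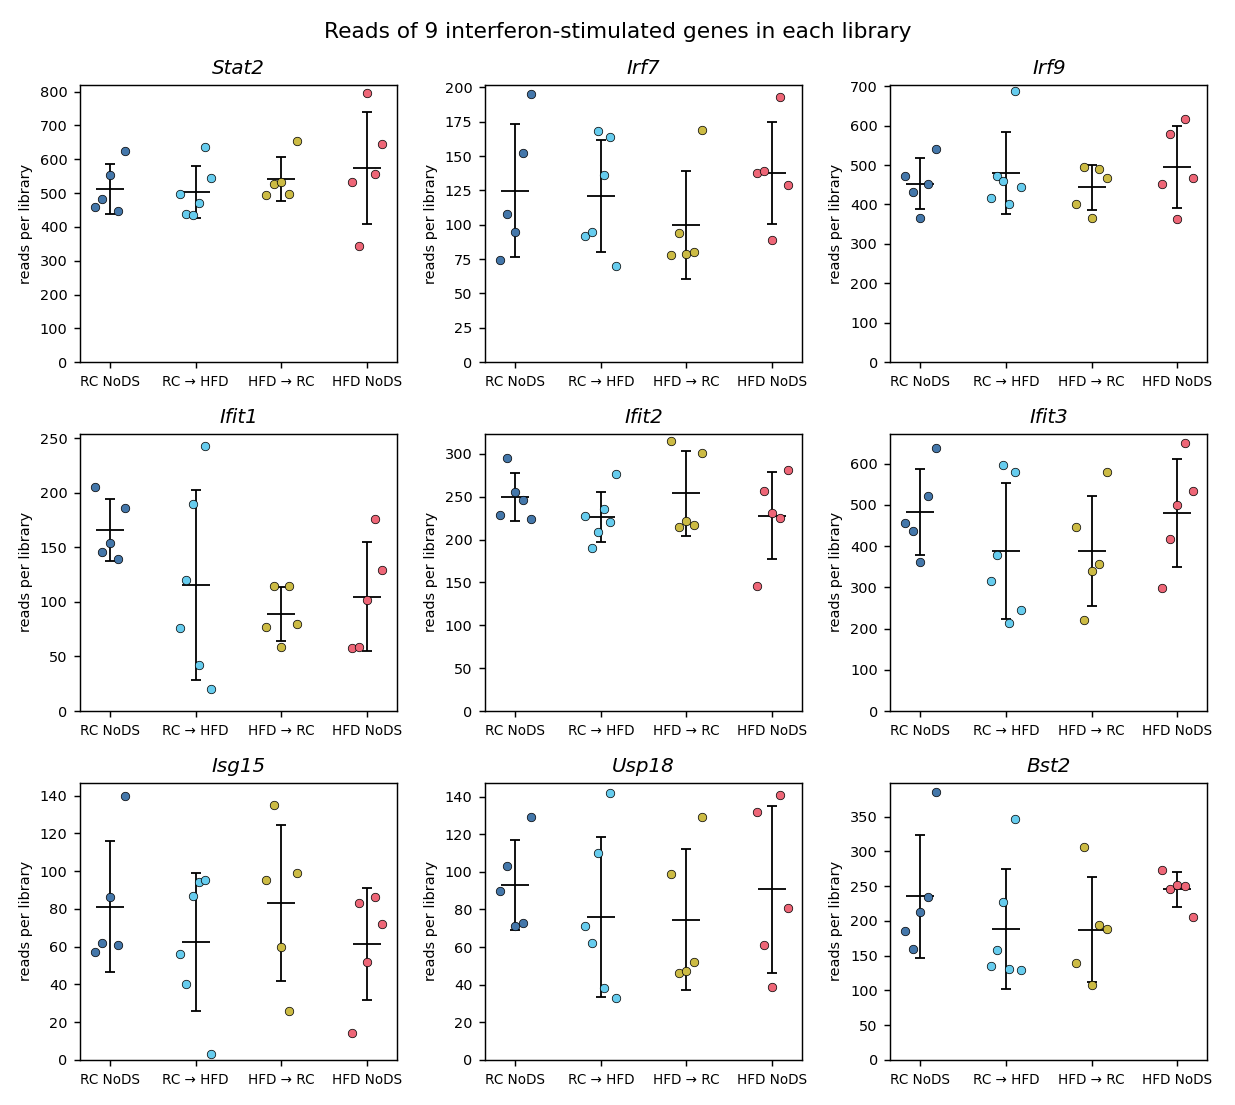
Reads per library (vertical axes, from 0) of the 9 interferon-stimulated genes in the 4 diet groups; points are libraries and bars are the mean ± SD of 5 or 6 libraries. The groups overlap for all 9 genes in every pair, except *Ifit1* in HFD → RC (59 to 115 reads) and RC NoDS (139 to 205 reads).

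*Stat2* (ENSMUSG00000040033) encodes the STAT protein particular to the type I and type III interferon receptors. It averaged 575 ± 166 reads (SD, n = 5) in HFD NoDS, 542 ± 65.9 in HFD → RC, 513 ± 74.6 in RC NoDS and 504 ± 76.8 (n = 6) in RC → HFD, and no neighbours in this order differed beyond their spread. HFD NoDS alone held both the lowest library of all 21 (344 reads, replicate 20) and the highest (797 reads, replicate 21). Its log2 fold change in HFD NoDS against RC NoDS was 0.18 (SE 0.16, 95% interval -0.14 to 0.50, adjusted p = 0.871).

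*Irf9* (ENSMUSG00000002325) encodes the DNA-binding partner of STAT2. It averaged 495 ± 103 reads in HFD NoDS, 480 ± 105 in RC → HFD, 453 ± 64.2 in RC NoDS and 443 ± 57.4 in HFD → RC, again with every step smaller than the spread. The high end was RC → HFD 11 with 687 reads, against 400 to 473 in the rest of its group. Its log2 fold change in HFD NoDS against RC NoDS was 0.14 (SE 0.15, 95% interval -0.17 to 0.46, adjusted p = 0.892). Its exons overlap those of *Rnf31* on the same strand, so that some of its reads may belong to that gene.

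*Irf7* (ENSMUSG00000025498), which amplifies interferon production, was the scarcest of the 3 factors. Its reads were 74, 108, 95, 152 and 195 in RC NoDS 1, 2, 3, 5 and 6, and 78, 94, 79, 80 and 169 in HFD → RC 13 to 17. They were 138, 139, 89, 193 and 129 in HFD NoDS 19, 20, 21, 23 and 24, and in RC → HFD the lowest, median and highest were 70, 115.5 and 168. All HFD → RC libraries but replicate 17 were low and close together, and all groups overlapped. The log2 fold change in HFD NoDS against HFD → RC was 0.45 (SE 0.29, 95% interval -0.15 to 1.06, adjusted p = 0.765). Its exons overlap those of *Phrf1* on the opposite strand. The library kit keeps the strand, but whether counting used it is not given in the sources used here, so reads of this pair may not be told apart.

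*Ifit1* (ENSMUSG00000034459), whose protein binds foreign RNA caps, was the only one of the 9 to reach an unadjusted p under 0.05 in any comparison. Its reads were 205, 146, 154, 139 and 186 in RC NoDS 1, 2, 3, 5 and 6. They were 77, 115, 59, 115 and 80 in HFD → RC 13 to 17. All HFD → RC libraries thus lay below all RC NoDS libraries. Such a lack of overlap, in either direction, was counted after the values were seen, and was found for 1 of the 9 genes in this pair, beside 1.36% of all tested genes (216 of 15884). The log2 fold change was -0.87 (SE 0.42, 95% interval -1.73 to -0.02, a fold of 0.546), and with an adjusted p of 0.702 from edgeR it did not pass the threshold.

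In the remaining groups *Ifit1* was spread widely. HFD NoDS 19, 20, 21, 23 and 24 had 58, 59, 102, 176 and 129 reads, and RC → HFD had 20, 98 and 243 at its lowest, median and highest. RC → HFD thus held both ends of the whole series, in replicates 12 and 11, and overlapped with every other group. In HFD NoDS against RC NoDS the log2 fold change was -0.65 (SE 0.42, 95% interval -1.50 to 0.20, adjusted p = 0.812). Lack of overlap was found for 0 of the 9 genes in the other 5 pairs, beside 0.913% of tested genes in HFD NoDS against RC NoDS and 0.472% in HFD → RC against RC → HFD. The corresponding shares were 1.03% in RC → HFD against RC NoDS, 0.718% in HFD NoDS against RC → HFD and 0.995% in HFD NoDS against HFD → RC.

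*Ifit2* (ENSMUSG00000045932) and *Ifit3* (ENSMUSG00000074896) encode relatives of IFIT1, and the 3 genes lie in 1 cluster on chromosome 19. *Ifit2* averaged 254 ± 49.6 reads in HFD → RC, 250 ± 28.3 in RC NoDS, 228 ± 51.0 in HFD NoDS and 227 ± 29.4 in RC → HFD. *Ifit3* averaged 483 ± 104 in RC NoDS, 480.4 ± 132 in HFD NoDS, 389 ± 133 in HFD → RC and 388.5 ± 165 in RC → HFD. No step in either order exceeded the spread. The log2 fold change of *Ifit3* was 0.00 (SE 0.25, 95% interval -0.51 to 0.51) in HFD NoDS against RC NoDS and -0.00 (SE 0.24, 95% interval -0.50 to 0.49) in HFD → RC against RC → HFD. For its interaction it was 0.59 (SE 0.35, 95% interval -0.12 to 1.29, adjusted p = 0.731). *Ifit3* shares 31.7% of its 100-base stretches with its near copy *I830012O16Rik*, and *Ifit1* shares 3.29% with *2010002M12Rik*, so that reads of these genes are partly uncertain.

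*Bst2* (ENSMUSG00000046718) encodes tetherin, a membrane protein that holds budding viruses at the cell surface. Its reads were 185, 160, 213, 234 and 385 in RC NoDS 1, 2, 3, 5 and 6, and 274, 246, 252, 250 and 205 in HFD NoDS 19, 20, 21, 23 and 24. They were 140, 307, 108, 194 and 188 in HFD → RC 13 to 17, with 130, 146.5 and 347 as the lowest, median and highest in RC → HFD. HFD NoDS was narrow. The highest libraries of the other groups, RC NoDS 6, RC → HFD 11 and HFD → RC 14, had 385, 347 and 307 reads. The next highest in those groups had 234, 227 and 194. None of these lay beyond the 95% limit of Dixon's ratio, an outlier test used below. The interaction had a log2 value of 0.68 (SE 0.38, 95% interval -0.10 to 1.46, adjusted p = 0.697).

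*Isg15* (ENSMUSG00000035692) encodes a ubiquitin-like protein that is joined to other proteins, and it had the largest biological coefficient of variation of the 9 in edgeR. Over all 21 libraries the plain coefficient of variation was 48.5%, beside 49.9% for *Ifit1*. Its reads were 57, 62, 86, 61 and 140 in RC NoDS 1, 2, 3, 5 and 6, and 95, 135, 60, 26 and 99 in HFD → RC 13 to 17. HFD NoDS 19, 20, 21, 23 and 24 had 14, 83, 52, 86 and 72, and RC → HFD had 3, 71.5 and 95 at its lowest, median and highest. The lowest libraries were RC → HFD 12 and HFD NoDS 19, and all groups overlapped. The log2 fold change in HFD NoDS against RC NoDS was -0.39 (SE 0.52, 95% interval -1.46 to 0.68, adjusted p = 0.919), an interval that leaves room for more than a halving.

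*Usp18* (ENSMUSG00000030107) encodes the protease that removes ISG15 from proteins and dampens the receptor. It averaged 93.2 ± 23.9 reads in RC NoDS, 90.8 ± 44.4 in HFD NoDS, 76.0 ± 42.5 in RC → HFD and 74.6 ± 37.6 in HFD → RC, with no step beyond the spread. Its lowest and highest values, 33 and 142, were both in RC → HFD, in replicates 12 and 11. The log2 fold change in HFD NoDS against RC NoDS was -0.02 (SE 0.39, 95% interval -0.83 to 0.78).

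**Figure D2:**
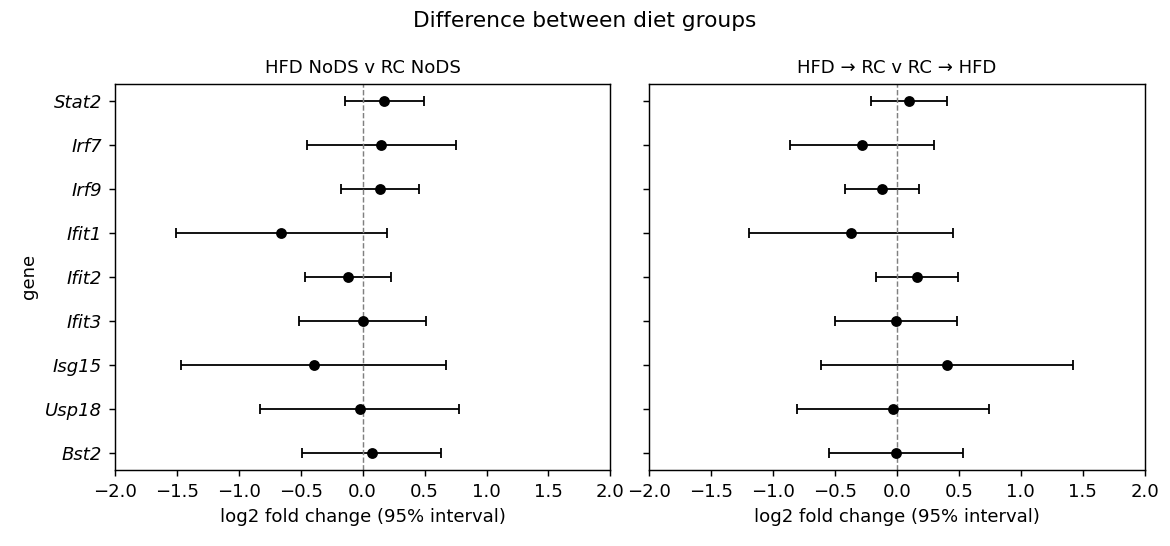
Log2 fold changes (horizontal axes) with 95% intervals (bars) from edgeR for the 9 genes in HFD NoDS against RC NoDS and in HFD → RC against RC → HFD. All intervals include 0, and that of *Isg15* is the widest in both.

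Side by side, the log2 fold changes of the 9 genes had a median of 0.00 in HFD NoDS against RC NoDS (5 higher, 4 lower) and -0.01 in HFD → RC against RC → HFD (3 higher, 6 lower). Against RC NoDS the median was -0.27 in RC → HFD (2 higher, 7 lower) and -0.29 in HFD → RC (3 higher, 6 lower). The median of HFD NoDS was 0.17 against RC → HFD and 0.22 against HFD → RC, and the interaction had a median of 0.48 (7 higher, 2 lower). Over all tested genes the medians of these comparisons lay between -0.01 and 0.00. None of the single differences of the 9 genes passed the threshold, and the medians carry no test. In the same comparisons the markers of meninges and fibroblasts had medians of -0.92 in RC → HFD and -0.73 in HFD → RC against RC NoDS and 1.74 for the interaction, and those of neurons 0.17, 0.20 and -0.31. In HFD NoDS the medians of meninges and fibroblasts were 1.01 against RC → HFD and 0.83 against HFD → RC. Those of neurons were -0.11 and -0.14. The part of these cell types in the medians of the 9 genes was not tested.

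Scaled to exon length, reads per kb of exon were highest for *Bst2* (279 ± 96.4, SD, n = 21) and *Ifit3* (248 ± 77.4). *Stat2* (121 ± 22.4), *Isg15* (94.7 ± 45.9) and *Irf9* (86.9 ± 15.3) followed. *Ifit2* (60.9 ± 10.03), *Usp18* (47.1 ± 20.5), *Ifit1* (44.7 ± 22.3) and *Irf7* (40.0 ± 13.5) were lowest. Only the steps from *Ifit3* to *Stat2* and from *Irf9* to *Ifit2* exceeded the summed SDs of the neighbours, and this order of levels was not tested.

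The 9 genes varied between libraries of the same group. The biological coefficient of variation in edgeR was 55.8% for *Isg15*, 45.0% for *Ifit1*, 42.3% for *Usp18*, 31.9% for *Irf7*, 29.9% for *Bst2* and 27.3% for *Ifit3*, beside a median of 17.6% over tested genes. It was 18.4% for *Ifit2*, 17.2% for *Stat2* and 16.8% for *Irf9*. The 9 genes were not compared with genes of equal level.

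The same few libraries were often high or low for several of the genes. RC NoDS 6 was the highest of its group for 7 of the 9 genes (and the lowest for 1), RC → HFD 11 for 6, HFD NoDS 23 for 6 and HFD → RC 17 for 4. HFD → RC 14 was mixed, the highest of its group for 4 and the lowest for 3. RC → HFD 12 was the lowest of its group for 5 and HFD NoDS 19 for 4, and each was the highest for 1. RC NoDS 6, RC → HFD 11, HFD → RC 17 and HFD NoDS 23 were each above the group mean for 8 of the 9. Each gene's log2 CPM (reads scaled to library size), less its group mean, were compared with the mean of the other 8 over the 21 libraries (Pearson r, Spearman rho, and r without RC → HFD 11 and RC NoDS 6, the 2 libraries farthest from the median of the mean profile, both high). For *Ifit3* these were 0.727, 0.687 and 0.626, and for *Irf7* 0.680, 0.601 and 0.617. For *Ifit1* they were 0.656, 0.557 and 0.585, for *Usp18* 0.637, 0.538 and 0.501, and for *Isg15* 0.533, 0.529 and 0.456. With RC → HFD 12, the lowest library, left out as well, a choice made after seeing the data, r was 0.597 for *Ifit3*, 0.533 for *Irf7*, 0.494 for *Ifit1*, 0.399 for *Usp18* and 0.372 for *Isg15*. The r of these 5 genes was thus positive but smaller without the libraries at both ends.

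*Bst2* (0.568, 0.449 and 0.244) and *Irf9* (0.532, 0.412 and 0.213) had a lower r without the 2 farthest libraries, and 0.204 and 0.282 without the lowest library too. *Stat2* (0.138, 0.0182 and -0.243) and *Ifit2* (-0.106, -0.104 and -0.0608) had the lowest r of the 9, at -0.135 and 0.178 without all 3 libraries. Of the 36 pairs among the 9 genes, 30 had an r over 0 and 4 an r over 0.6, with a median of 0.344. All genes of a library come from the same pooled punches and the same depth, so these values describe the libraries and carry no p. Among the 15875 other tested genes the median r with the mean of the 9 was -0.00942, and 1.46% had an r over 0.6.

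**Figure D3:**
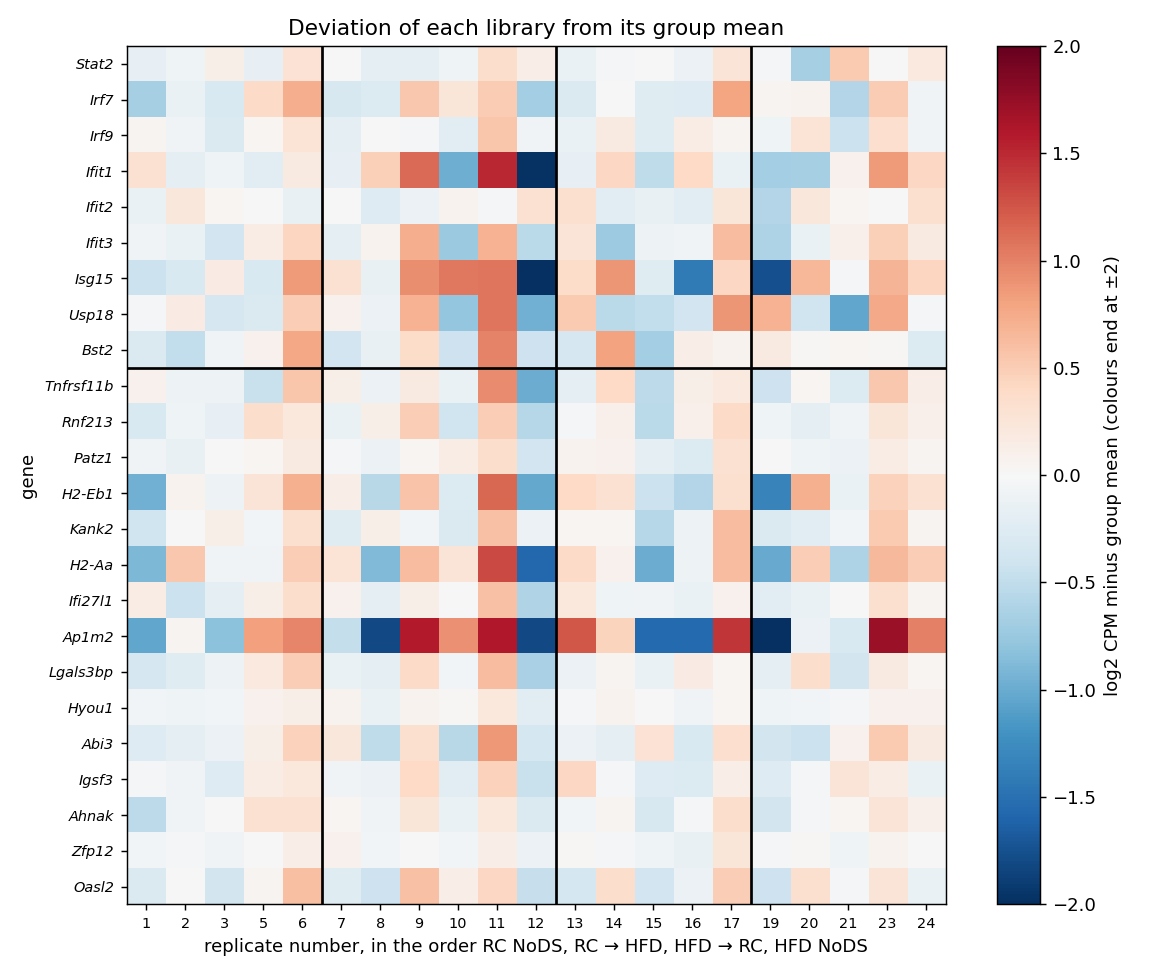
Deviation of each library (columns, by replicate number within group) from its group mean in log2 CPM, for the 9 genes (above the line) and the 15 other genes most like them (below it). RC NoDS 6, RC → HFD 11, HFD → RC 17 and HFD NoDS 23 are red for most genes, and RC → HFD 12 is blue for most.

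The 15 other genes whose deviations were most like the mean of the 9 had r from 0.775 to 0.847 and rho from 0.649 to 0.887. They were, in order, *Tnfrsf11b* (r = 0.847, rho = 0.758, r = 0.740 without the 2 farthest libraries), *Rnf213* (0.840, 0.834 and 0.866), *Patz1*, *H2-Eb1*, *Kank2*, *H2-Aa*, *Ifi27l1*, *Ap1m2*, *Lgals3bp*, *Hyou1*, *Abi3*, *Igsf3*, *Ahnak*, *Zfp12* and *Oasl2* (0.775, 0.782 and 0.747). Of these, *H2-Eb1* and *H2-Aa* encode chains of the class II molecules that present antigen, and *Oasl2* and *Lgals3bp* are further interferon-stimulated genes.

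The other genes of the pathway were described by lists. Of 12 interferon ligands, 2 were counted, *Ifng* (0 to 29 reads, at 0 in 13 of 21 libraries) and *Ifnz* (0 to 6 reads, at 0 in 19), and 0 were abundant enough to test. From the other lists edgeR called 0 genes in each of the 8 comparisons. In HFD NoDS against RC NoDS an unadjusted p under 0.05 was reached by 1 of 9 receptors and kinases, 0 of 6 transcription factors, 1 of 15 sensors, 3 of 38 other interferon-stimulated genes, 5 of 18 antigen presentation genes and 1 of 7 negative regulators. For HFD → RC against RC → HFD these numbers were 0, 0, 1, 2, 1 and 0. Among all tested genes the share was 6.43% in the first and 5.02% in the second of these comparisons. The genes named below are, for each list, the 3 with the smallest p in these comparisons, and their values are log2 fold changes that did not pass the threshold.

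All 9 receptor chains and kinases were tested. In HFD NoDS against RC NoDS the log2 fold changes were -0.44 for the kinase *Jak2* (SE 0.14, adjusted p = 0.720), 0.16 for *Ifngr2* (SE 0.12) and -0.16 for *Ifnar1* (SE 0.13). Between HFD → RC and RC → HFD they were 0.20 for *Ifngr1* (SE 0.13), 0.12 for *Ifnar2* (SE 0.11) and 0.07 for *Jak1* (SE 0.07). Of 6 further transcription factors, the examples in HFD NoDS against RC NoDS were *Irf8* at -0.34 (SE 0.26), *Irf2* at 0.20 (SE 0.16) and *Irf5* at 0.33 (SE 0.33). For HFD → RC against RC → HFD the examples were *Irf5* at -0.62 (SE 0.32), *Irf8* at 0.47 (SE 0.25) and *Irf3* at 0.15 (SE 0.13).

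Of 15 sensors of foreign nucleic acid and their adaptors, the examples in HFD NoDS against RC NoDS were the DNA sensor cGAS (listed as *E330016A19Rik*) at -2.88 (SE 1.16), STING (listed as *Tmem173*) at 0.52 (SE 0.30) and *Tlr9* at 0.96 (SE 0.74). cGAS had 0 to 32 reads and was at 0 in 4 libraries. The examples in HFD → RC against RC → HFD were *Ikbke* at -1.05 (SE 0.40, adjusted p = 0.973), *Ddx58* at 0.43 (SE 0.22) and *E330016A19Rik* at 1.38 (SE 0.98). Of 40 other interferon-stimulated genes, 38 were tested, among them *Eif2ak2* at -0.73 (SE 0.23, adjusted p = 0.730), *Samhd1* at -0.33 (SE 0.14) and *Ifitm2* at 0.75 (SE 0.35) in HFD NoDS against RC NoDS. Those in HFD → RC against RC → HFD were *Oas2* at -2.10 (SE 0.80), *Ifi35* at -0.53 (SE 0.25) and *I830012O16Rik* at -0.42 (SE 0.21). These 38 genes had a median log2 fold change of -0.12 (16 higher, 22 lower) and 0.02 (20 higher, 18 lower) in the respective comparisons. Against RC NoDS, 9 were higher and 29 lower in HFD → RC (median -0.27, beside 7795 and 8088 of all tested genes), and 8 were higher and 30 lower in RC → HFD (median -0.15, beside 7811 and 8072). For the interaction 29 were higher and 9 lower (median 0.42). HFD NoDS had 23 higher and 15 lower against RC → HFD, and 26 higher and 12 lower against HFD → RC. Of the 38, edgeR called 0 in each of these comparisons, and 6, 3, 6, 3 and 8 had an unadjusted p under 0.05. In the same order, 7.01%, 5.55%, 8.16%, 6.92% and 7.4% of all tested genes did. The 4 markers of meninges and fibroblasts were also all lower against RC NoDS in HFD → RC (median -0.73) and in RC → HFD (median -0.92), and the 3 neuron markers all higher (medians 0.20 and 0.17). The 6 endothelial markers were all higher too (medians 0.15 and 0.16, with 0 and 2 at an unadjusted p under 0.05). For the interaction these 6 were all lower (median -0.27, 0 at that limit). The 3 erythrocyte markers were all lower in RC → HFD against RC NoDS (median -1.18, 3 of 3 at an unadjusted p under 0.05), and the oligodendrocyte marker *Mbp* rose in HFD → RC against RC NoDS. For the interaction the meninges and fibroblast markers were all higher (median 1.74) and the neuron markers all lower (median -0.31), each at an unadjusted p under 0.05. The share of weakly expressed genes at 0, lowest in RC NoDS, moved with the groups too: of the 38 genes, 0 were at 0 in each RC NoDS library, but 7 in RC → HFD 12 and 6 in HFD → RC 14 and HFD NoDS 20. The part of these markers and of this share in the values of the 38 genes was not tested.

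Of 21 genes of the interferon gamma response and antigen presentation, 18 were tested. In HFD NoDS against RC NoDS the examples were *H2-K1* at 0.43 (SE 0.16), *H2-D1* at 0.34 (SE 0.13) and *Nlrc5*, an activator of class I genes, at 0.88 (SE 0.33), each with an adjusted p of 0.737. Those in HFD → RC against RC → HFD were *Nlrc5* at -0.68 (SE 0.32), *Iigp1* at -0.65 (SE 0.47) and *B2m* at 0.13 (SE 0.10). Of the 18, 13 were higher and 5 lower in HFD NoDS against RC NoDS, 7 and 11 in HFD → RC against RC → HFD, 4 and 14 in RC → HFD against RC NoDS, and 5 and 13 in HFD → RC against RC NoDS. They were 16 and 2 in HFD NoDS against RC → HFD and for the interaction. Of all tested genes, 7791 were higher and 8093 lower in the former, and 7907 and 7977 for the interaction. Of the 18, 7 and 6 had an unadjusted p under 0.05 in these comparisons, beside 6.92% and 8.16% of all tested genes. Against RC → HFD, all 4 markers of meninges and fibroblasts were higher in HFD NoDS (median 1.01, 4 of 4 at that limit). All 3 neuron markers were lower there (median -0.11, 1 of 3). The 8 microglia markers were all higher in HFD NoDS against RC NoDS (median 0.06, 2 of 8). The part of these markers in the values of the 18 genes was not tested. All 18 were higher in HFD NoDS against HFD → RC, a comparison singled out after the values were seen, with a median log2 fold change of 0.32, beside 7714 of 15884 tested genes with a median of -0.01. Of the 18, edgeR called 0 in that comparison and 7 had an unadjusted p under 0.05, beside 7.4% of all tested genes. In the same comparison all 4 markers of meninges and fibroblasts were higher (median 0.83, 3 of 4 at an unadjusted p under 0.05) and all 3 neuron markers were lower (median -0.14, 1 of 3), and their part in the values of the 18 genes was not tested. All 7 negative regulators were tested, with *Socs3*, a feedback inhibitor of JAK kinases, at 0.78 (SE 0.20, adjusted p = 0.454), *Trex1* at 0.90 (SE 1.18) and *Ptpn6* at 0.18 (SE 0.34) in HFD NoDS against RC NoDS. *Socs3* was at -0.40 (SE 0.19), *Ptpn11* at 0.05 (SE 0.05) and *Ptpn6* at 0.27 (SE 0.33) in HFD → RC against RC → HFD.

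Cell type markers were set beside these values, since in bulk tissue fewer cells of a type and less RNA per cell cannot be told apart. Among the marker lists, meninges and fibroblasts varied most like the 9 genes, with a median r of 0.530 over 4 genes (*Dcn* 0.724, *Col1a1* 0.623, *Col1a2* 0.438 and *Lum* 0.229). For *Dcn* rho was 0.888 and r without the 2 farthest libraries 0.715. Their summed reads were 1866 ± 609 (SD, n = 5) in RC NoDS, from 999 to 2638, and 2016 ± 956 in HFD NoDS, from 548 to 3179. They were 1023 ± 322 (n = 6) in RC → HFD, from 726 to 1503, and 1133 ± 519 in HFD → RC, from 559 to 1748. *Dcn* was the most abundant at 662 reads per library, *Lum* was at 0 in 2 libraries, and edgeR called 0 of the 4 in each comparison. An unadjusted p under 0.05 was reached by 3 of the 4 in RC → HFD against RC NoDS, by all 4 in HFD NoDS against RC → HFD, over all 4 groups and for the interaction, by 3 in HFD NoDS against HFD → RC, and by 1 in HFD → RC against RC NoDS. It was reached by 0 in HFD NoDS against RC NoDS and in HFD → RC against RC → HFD. On average this list was lower in both switched groups than in both unswitched groups, as were *Bst2*, *Ifit3*, *Usp18* and *Irf7*. The rest of the 9 genes did not have this order. *Isg15* (83.0 beside 81.2), *Ifit2* (254 beside 250) and *Stat2* (542 beside 513) averaged more in HFD → RC than in RC NoDS. *Irf9* averaged more in RC → HFD (480) than in RC NoDS (453), and *Ifit1* more in RC → HFD (115) than in HFD NoDS (105). The part of this list in the values of the 9 genes was not tested.

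The 8 microglia markers, of which *Csf1r* was the most abundant and none was at 0 in any library, had a median r of 0.283. Their summed reads were 5939 ± 298 in RC NoDS, 5757 ± 275 in RC → HFD, 6286 ± 577 in HFD → RC and 6570 ± 614 in HFD NoDS, and edgeR called 0 of 8 in each comparison, with 0 to 2 of them at an unadjusted p under 0.05. The 3 neuron markers had a median r of -0.603, with *Snap25* at -0.628 (rho = -0.642, r = -0.731 without the 2 farthest libraries), and summed to 18823 ± 1708 reads in RC NoDS, 20705 ± 1620 in RC → HFD, 21042 ± 2149 in HFD → RC and 19110.4 ± 1270 in HFD NoDS. Of the blood leukocyte markers, *Cd3e* of T cells was at 0 in 17 of 21 libraries, and the 2 markers that could be tested, *S100a9* and *Ccr2*, had a median r of 0.283. *Mbp*, a marker of oligodendrocytes with 17025 to 74724 reads per library, differed in the pair in which *Ifit1* did not overlap. It rose in HFD → RC against RC NoDS (log2 fold change 1.03, SE 0.24, adjusted p = 0.137 in edgeR), and its part in the *Ifit1* values was not tested. Between libraries its r with the mean of the 9 genes was -0.00528 (rho = 0.0156, r = -0.00509 without the 2 farthest libraries). The 3 erythrocyte markers summed to 2945 ± 428 reads in RC NoDS, 1308.5 ± 332 in RC → HFD, 2479 ± 1745 in HFD → RC and 1897 ± 858 in HFD NoDS.

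Of the other markers, edgeR called *Agrp* (log2 fold change -0.97, SE 0.20) and *Hcrt* (a fold of 6.50, SE 0.55 on the log2 scale) in HFD NoDS against RC NoDS, both with an adjusted p of 0.0611, *Agrp* (-1.24, SE 0.19) in RC → HFD against RC NoDS, and *Agrp* and *Gfap* over all 4 groups. The median r with the 9 genes was 0.0991 for endothelial cells, 0.293 for erythrocytes, 0.304 for choroid plexus, 0.00698 for astrocytes, 0.193 for ventral hypothalamus, -0.172 for lateral hypothalamus and -0.131 for pituitary. Among the pathway lists it was 0.539 for antigen presentation, 0.333 for other interferon-stimulated genes, 0.294 for sensors, 0.265 for receptors, 0.230 for negative regulators and 0.0861 for transcription factors.

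The share of weakly expressed genes at 0 entered 2 further fits. With this share as a covariate, 0 of the 9 genes were called in each comparison. With the 8 libraries over 15% left out, a setting chosen after seeing the data, *Ifit1* passed the threshold in HFD → RC against RC NoDS at a log2 fold change of -1.26 (SE 0.32, adjusted p = 0.0630 from edgeR), where 444 of 15928 genes (2.79%) were called. *Bst2* then passed for the interaction, at 1.32 (SE 0.39, adjusted p = 0.118 from edgeR), where 577 genes (3.62%) were called, and 0 of the 9 were called in the other 6 comparisons. That setting kept only 2 HFD → RC libraries. It also moved log2 fold changes that did not pass. *Bst2* was -0.90 in HFD → RC against RC NoDS, from -0.31, and 0.90 in HFD NoDS against HFD → RC, from 0.38. In the latter pair *Ifit1* was 0.97, from 0.22, whereas *Usp18* was 0.23, from 0.28. *Stat2* in HFD NoDS was 0.38 against RC NoDS and 0.53 against RC → HFD, from 0.18 and 0.17. *Ifit1* was -0.91 in HFD → RC against RC → HFD, from -0.37, and -0.29 in HFD NoDS against RC NoDS, from -0.65. For the interaction *Ifit1* was 1.32, from 0.72, with an adjusted p of 0.1503 from edgeR.

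The stretch before the start of each gene was read from a RefSeq table (GRCm38.p6, a later build than the mm9 of the counts) to show whether the genes share the response element. Of the 9 genes, 8 had an entry, with 10 promoters of 300 bases; *Usp18* had none. The core of the element was searched on both strands as GAAANNGAAA, and a STAT site as TTCNNNGAA. The first was found for 5 of the 8 genes, beside 3.44% of all 32851 promoters, and the second for 2, *Ifit2* and *Bst2*, beside 8.30%. The 250 bases before the start are printed for those 5 genes, 5′ to 3′ on the strand of the gene, with matches to GAAANNGAAA or its reverse complement in capitals. *Stat2* lies at chr10:128270248-128270497 (plus strand), *Ifit1* at chr19:34640639-34640888 (plus strand), *Ifit3* at chr19:34583279-34583528 (plus strand), *Isg15* at chr4:156200819-156201068 (minus strand) and *Bst2* at chr8:71537473-71537722 (minus strand).
Stat2: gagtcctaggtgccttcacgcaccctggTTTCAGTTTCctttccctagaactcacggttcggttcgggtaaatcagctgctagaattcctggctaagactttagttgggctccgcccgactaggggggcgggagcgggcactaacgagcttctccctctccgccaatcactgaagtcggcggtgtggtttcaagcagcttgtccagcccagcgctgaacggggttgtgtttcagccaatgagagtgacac
Ifit1: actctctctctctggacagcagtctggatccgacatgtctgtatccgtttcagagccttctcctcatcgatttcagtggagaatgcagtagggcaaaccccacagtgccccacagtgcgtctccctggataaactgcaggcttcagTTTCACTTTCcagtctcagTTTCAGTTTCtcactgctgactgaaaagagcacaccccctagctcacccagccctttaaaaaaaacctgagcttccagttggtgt
Ifit3: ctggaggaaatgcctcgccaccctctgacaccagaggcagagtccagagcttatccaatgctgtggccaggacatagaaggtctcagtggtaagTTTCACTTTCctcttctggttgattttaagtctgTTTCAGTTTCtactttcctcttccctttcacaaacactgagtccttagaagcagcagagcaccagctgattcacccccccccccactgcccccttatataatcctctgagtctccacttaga
Isg15: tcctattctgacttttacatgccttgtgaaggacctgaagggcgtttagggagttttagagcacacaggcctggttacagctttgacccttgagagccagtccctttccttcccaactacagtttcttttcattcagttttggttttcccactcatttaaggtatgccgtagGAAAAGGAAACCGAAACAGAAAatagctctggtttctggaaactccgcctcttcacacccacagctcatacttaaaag
Bst2: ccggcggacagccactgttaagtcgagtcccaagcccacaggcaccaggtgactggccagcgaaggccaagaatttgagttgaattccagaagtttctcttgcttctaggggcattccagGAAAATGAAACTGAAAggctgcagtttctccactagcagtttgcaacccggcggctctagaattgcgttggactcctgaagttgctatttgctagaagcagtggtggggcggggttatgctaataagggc

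*Ifit1* and *Ifit3* each held 2 separate matches, *Stat2* held 1, and in *Isg15* (3 matches) and *Bst2* (2 matches) they overlapped into a single run. No match in *Irf7*, *Irf9* and *Ifit2* says only that these letters are not in this window.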

How the data were processed

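Ventral hypothalamus punches from 4 diet groups gave 21 libraries (5, 6, 5 and 5). The counts deposited by the authors are whole reads per gene: per the study's methods and the submitters' processing notes, reads were merged with Picard 2.7.1, aligned to mm9 with STAR 2.5.1b, freed of ribosomal and mitochondrial reads and re-sampled at random to the smallest depth with PORT. Groups came from the sample labels; replicates are pools of different mice.

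Here genes averaging at least 5 reads per library were tested with edgeR 4.0.16 (TMM, quasi-likelihood, all 21 libraries in 1 fit) in R 4.3.3, with Benjamini-Hochberg adjustment over all tested genes and a threshold of 0.15. Intervals are 95%. Likeness used log2 CPM with a prior count of 2. Python 3.11.15, numpy 2.4.6 and matplotlib 3.10.9 did the rest. The code was tested on simulated data.

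Alternatives were DESeq2 1.42.0, limma-voom (limma 3.58.1), a minimum mean of 50 reads, no minimum, other normalizations, only the compared groups, a covariate for the share of weak genes at 0, and each library left out. Leaving out 8 libraries over 15% for that share was added after seeing the data, as was leaving out the lowest library for likeness. All 9 genes are named; of each pathway list, any gene called and otherwise the 3 with the smallest p in HFD NoDS against RC NoDS and in HFD → RC against RC → HFD; and the 15 genes most like the 9. The 9 genes and the lists were chosen with earlier results of these data known. P-values measure the spread between pooled libraries. Some marker and pathway genes are not reported here.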

Additional observations from a re-analysis of the deposited data

Results flagged for a closer look

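In 36 groups (9 genes in 4 diet groups) the highest or lowest library was compared with the nearest other by Dixon's ratio, and 3 values, from 2 libraries, lay beyond its 95% limit; chance alone gives about 1 in 20 groups. *Stat2* had 655 reads in HFD → RC 17, against 493 to 534 in the rest of its group. *Irf7* had 169 reads in the same library, against 78 to 94 in the others. *Irf9* had 687 reads in RC → HFD 11, against 400 to 473 in the others. HFD → RC 17 and RC → HFD 11 were both among the libraries with over 15% of weakly expressed genes at 0 (31.9% and 17.6%).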

How the results depend on the processing

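With every other tool, minimum, normalization and covariate, and with each library left out in turn, 0 of the 9 genes were called in each of the 8 comparisons. With the 8 libraries over 15% of weak genes at 0 left out, chosen after seeing the data, 1 of 9 was called in HFD → RC against RC NoDS and 1 of 9 for the interaction, as given above; the other 6 comparisons stayed at 0. The limit falls between HFD NoDS 21 (14.6%) and HFD → RC 16 (15.1%). The likeness of the 9 genes had a median r of 0.568, 0.494 to 0.668 with single libraries left out, and 0.372 without RC → HFD 11, RC NoDS 6 and RC → HFD 12, chosen after seeing the data.

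Some log2 fold changes turned in sign, those of *Ifit3* (0.00 and -0.00 in the comparisons below) among them. In HFD NoDS against RC NoDS, *Ifit3* was -0.00353 with no minimum, -0.015 in limma-voom and -0.0089 with library size only; *Irf7* was -0.059 and *Bst2* -0.14 with the covariate, from 0.15 and 0.07. In HFD → RC against RC → HFD, *Ifit3* was 0.00091 in DESeq2, 0.039 in limma-voom, 0.000980 with the size factors of DESeq2, 0.0020 with library size only and 0.028 with the covariate; in limma-voom *Ifit1* was 0.028, from -0.37, *Usp18* 0.029, from -0.03, and *Bst2* 0.0083, from -0.01. With single libraries left out, the first comparison ranged from -0.044 to 0.32 for *Bst2*, -0.20 to 0.00062 for *Ifit2*, -0.13 to 0.13 for *Ifit3* and -0.23 to 0.17 for *Usp18*. The second ranged from -0.26 to 0.26 for *Bst2*, -0.19 to 0.16 for *Ifit3*, -0.17 to 0.013 for *Irf9* and -0.32 to 0.24 for *Usp18*. Values that kept their sign also moved with single libraries. In the first comparison *Stat2* ranged from 0.031 (without HFD NoDS 21) to 0.31 (without HFD NoDS 20), *Irf7* from 0.0039 (without HFD NoDS 23) to 0.37 (without RC NoDS 6) and *Irf9* from 0.055 (without HFD NoDS 23) to 0.24 (without HFD NoDS 21). *Isg15* ranged from -0.54 (without HFD NoDS 23) to -0.10 (without RC NoDS 6) and *Ifit1* from -0.92 (without HFD NoDS 23) to -0.50 (without HFD NoDS 19). In the second, *Stat2* ranged from 0.028 to 0.18, *Irf7* from -0.54 to -0.16, *Ifit1* from -0.59 to -0.0052, *Ifit2* from 0.071 to 0.23 and *Isg15* from 0.15 to 0.63. The cause was not tested.

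Counts over all tested genes moved more. In the order HFD NoDS against RC NoDS, HFD → RC against RC → HFD, all 4 groups, RC → HFD against RC NoDS, HFD → RC against RC NoDS, HFD NoDS against RC → HFD, HFD NoDS against HFD → RC and the interaction, edgeR called 10, 2, 20, 5, 25, 1, 4 and 0 genes. DESeq2 called 26, 7, 131, 119, 155, 44, 67 and 115, limma-voom 9, 1, 13, 5, 6, 1, 9 and 11, and edgeR with the covariate 6, 2, 8, 4, 1, 1, 14 and 7. A minimum of 50 reads gave 10, 1, 19, 5, 36, 2, 9 and 4, no minimum 10, 3, 31, 6, 30, 5, 5 and 5, and library size only 10, 2, 13, 4, 10, 2, 6 and 0. Only the compared groups gave 9, 1, 19, 24, 4 and 1 in the 6 pairs, and without the 8 libraries the counts were 16, 0, 235, 5, 444, 3, 415 and 577. With single libraries left out they ranged from 5 to 12, 1 to 39, 7 to 79, 4 to 9, 1 to 174, 1 to 7, 0 to 9 and 0 to 93; the 39, the 79 and the 174 were without HFD → RC 16.

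No paired analysis was possible because the groups share no replicate numbers.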
